A study of Mus musculus with 9 samples.

Results

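The TGF-beta ligand, receptor and latency genes were followed in the abdominal aorta of B cell-deficient mice. They comprised 3 ligand genes (Tgfb1, Tgfb2, Tgfb3), 3 receptor genes (Tgfbr1, Tgfbr2, Tgfbr3) and 4 genes of latent TGF-beta binding proteins (Ltbp1, Ltbp2, Ltbp3, Ltbp4). They were taken as the array probes that carry one of these 10 gene names, out of 16444 genes tested. The array held 19 probes for them, and 17 passed the filter on dim signal, with at least 1 for each of the 10 genes. The probe that represents each gene was well above background on all 9 arrays.

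All mice were of the uMT genotype on the C57BL/6 strain. They lack membrane-bound IgM heavy chain and their B cell precursors do not mature, so every group, the controls included, shares this defect. In the sham operation saline was laid on the outside of the vessel. In the CaCl2 group it was replaced by 0.5 M CaCl2, a procedure that injures the vessel wall from outside and is used to model abdominal aortic aneurysm. A further group had the same CaCl2 procedure and intraperitoneal mouse polyclonal IgG. Tissue from the CaCl2-treated groups was taken on day 7 after CaCl2. For the sham mice the sampling day, for all mice the age, and for IgG the dose were not given in the labels. Each group had 3 arrays, and the labels do not say that replicates came from separate animals, so the spread on which p-values rest may be technical.

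TGF-beta is made as a precursor whose propeptide stays wrapped around the growth factor and keeps it latent. The latent complex is tied to fibrillin and elastic fibres in the matrix by latent TGF-beta binding proteins, and integrins, proteases or thrombospondin can release the growth factor. Free TGF-beta binds the type II receptor, which recruits and activates the type I receptor, and the signal runs on through Smad proteins. In the aorta the pathway is known for its part in smooth muscle differentiation and matrix production, and inherited defects of its ligands, receptors and Smads cause aortic aneurysm in people.

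The 60-base probes for Tgfb1 and Tgfb2 are shown because they lie over the same stretch of the mature growth factor and show how far the array can tell these related ligands apart. Capitals mark bases that are identical where both probes overlap without gaps. The Tgfb1 probe lies at chr7:26489877-26489936 on the plus strand and the Tgfb2 probe at chr1:188449333-188449392 on the minus strand, in the mm9 build that the file headers use.
Tgfb1: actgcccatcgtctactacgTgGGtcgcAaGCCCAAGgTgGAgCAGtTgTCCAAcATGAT
Tgfb2: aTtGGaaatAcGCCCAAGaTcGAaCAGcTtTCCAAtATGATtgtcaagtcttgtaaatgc
Over 41 overlapping bases the probes shared 28, or 68.3%. The Tgfb1 and Tgfb3 probes were each printed in 10 spots, which were averaged, and the other probes of the 10 genes in 1 spot.

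Values are log2 signals minus the 75th percentile of their own array, control spots left out, so a difference of 1 is a 2-fold change. They describe a probe across arrays and do not rank genes against each other. Between 54.9% and 59.9% of probes per array were well above background, and 3 arrays per group limit the precision. Before scaling, the 75th percentile of signal was 267 to 302 on the sham arrays and 381 to 496 on the CaCl2 arrays. On the CaCl2 plus IgG arrays it was 449, 455 and, in replicate 3, 270. Array brightness thus differed between CaCl2 and sham. Replicate 3 of the CaCl2 plus IgG group stood apart, with a mean correlation of 0.959 with its own group across genes against 0.973 to 0.987 for the other arrays, so results of that group are also given without it. All CaCl2 arrays and 1 CaCl2 plus IgG array lay in row 1 of slide 1, and the other arrays of that slide in row 2. Sham replicate 3 lay in row 1 of slide 2 and was the sole array used here from that slide. Of 10 smooth muscle markers all 10 were well above background on all 9 arrays. The 6 B cell markers had summed linear signals, relative to the 75th percentile, of 2.99 to 4.52 in sham, 3.40 to 8.05 with CaCl2 and 3.91 to 11.2 with CaCl2 plus IgG.

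The first comparison asked how these genes differed between CaCl2 and sham aortas. Of the 4 latency genes, Ltbp2 rose 15.1-fold, Ltbp1 and Ltbp4 fell 2.58-fold and 2.40-fold, and Ltbp3 did not pass the test. Among the ligands Tgfb1 rose slightly and Tgfb2 and Tgfb3 fell, and among the receptors Tgfbr2 rose. In all, 7 of the 10 genes passed an adjusted p of 0.05 in limma, 3 higher and 4 lower, where 36.4% of all genes tested passed, 17.4% higher and 19.1% lower. The arrays of the compared groups did not overlap for 8 of the 10, against 56.6% of all genes. The median change of the 10 genes was -0.20 and that of all genes -0.08. When arrays were scaled to their median instead, the median of all genes moved by 0.47 to 0.39 and 77.2% of called genes were higher, where 47.7% were before. Under that scaling 4 of the 10 passed, 3 higher and 1 lower, against 4717 of all 16444 genes, 3641 higher and 1076 lower. Relative to the median of all genes, which is the same comparison under both scalings, the change was 0.99 for Tgfbr2, 0.50 for Tgfb1, -0.66 for Tgfb3, -0.72 for Tgfb2, -1.18 for Ltbp4 and -1.29 for Ltbp1.

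**Figure D1:**
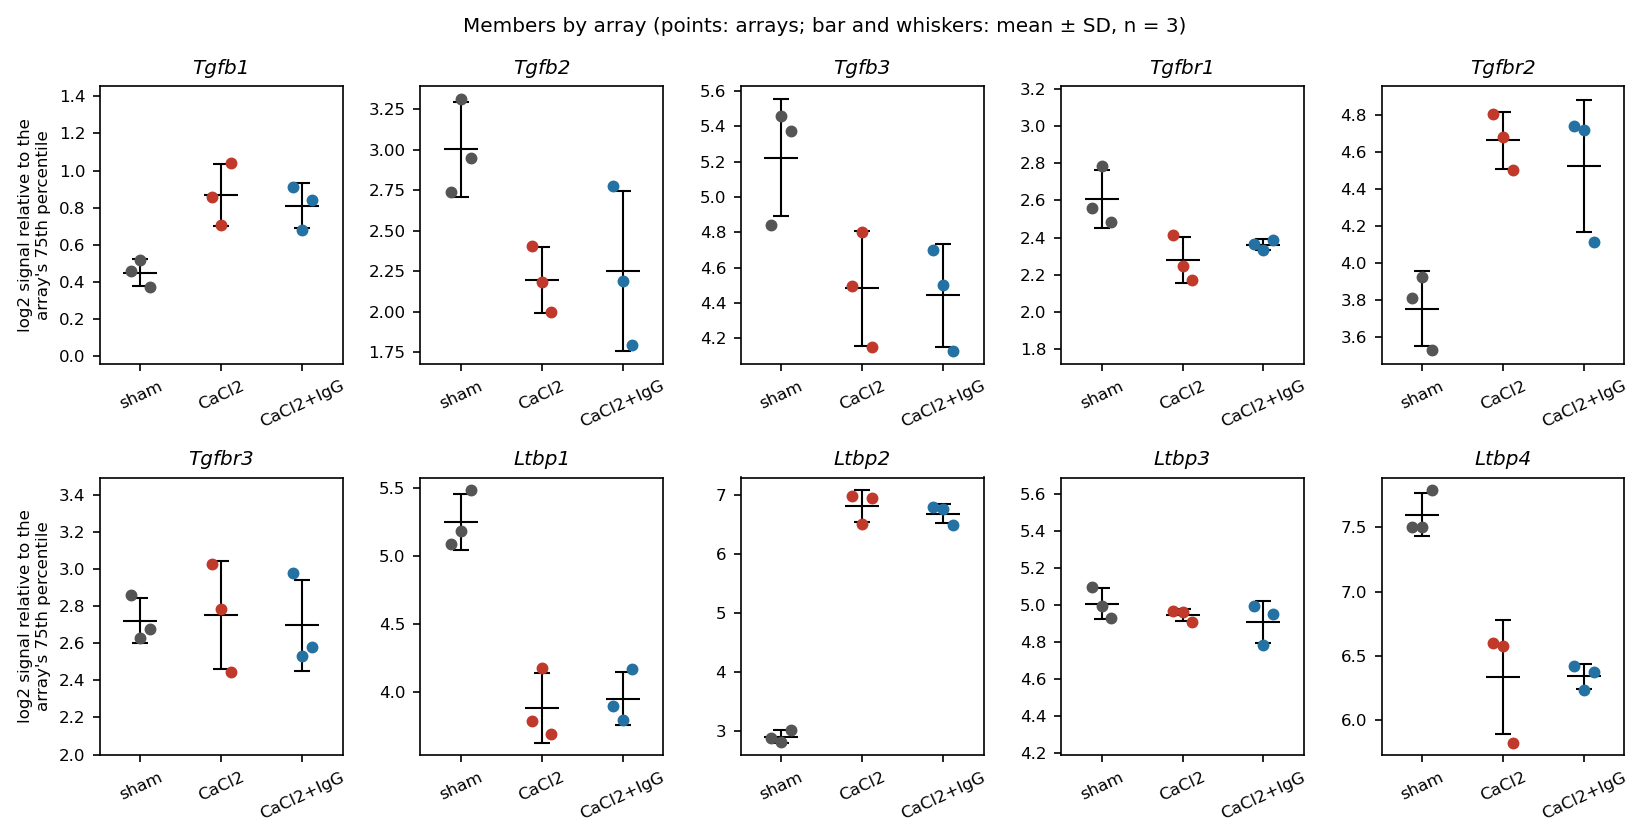
Log2 signal above the 75th percentile of its array (vertical axis, own range in each panel) for the 10 genes in sham, CaCl2 and CaCl2 plus IgG aortas. Each point is an array, and bars and whiskers are the mean and SD of 3 arrays. Ltbp2 lies between 2.81 and 3.02 in sham aortas and between 6.50 and 6.99 in the others.

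Among the ligands, Tgfb1, which is the form made by most leukocytes and platelets, read 0.46, 0.51 and 0.37 on the sham arrays and 0.86, 0.70 and 1.04 on the CaCl2 arrays. Every CaCl2 array lay above every sham array. Tgfb1 rose by 0.42 ± 0.13 (SE, adjusted p = 0.0408), a 1.34-fold change. This call was lost in 12 of 20 other settings, with a change of 0.33 and an adjusted p of 0.123 without CaCl2 replicate 3, the highest array. With the slide row as a block the change was 0.40 (adjusted p = 0.147), and within row 1 it was 0.49 against the lone sham array, which lay on the other slide.

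Tgfb2, the ligand that needs betaglycan for efficient receptor binding, read 2.74, 3.31 and 2.95 in sham aortas and 2.40, 2.19 and 2.00 with CaCl2. The lowest sham array stayed above the highest CaCl2 array. Tgfb2 fell by 0.80 (SE 0.26, adjusted p = 0.0434). Another probe further along the transcript gave a difference of -0.52 (SE 0.23, adjusted p over probes = 0.112). The call was lost in 12 of 21 settings, and over all 21 the difference ranged from -1.04 to -0.33.

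Tgfb3, the ligand best known from palate development, read 4.84, 5.46 and 5.37 in sham aortas and 4.50, 4.80 and 4.15 with CaCl2. Sham replicate 1 and CaCl2 replicate 2 almost met, and the groups did not overlap. Tgfb3 fell by 0.74 (SE 0.24, adjusted p = 0.0431). Its call was lost in 11 of 20 settings. With median scaling the differences of Tgfb2 and Tgfb3 were -0.33 (adjusted p = 0.531) and -0.27 (adjusted p = 0.582).

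Among the receptors, Tgfbr2, the type II receptor that binds the ligand first, read 3.81, 3.92 and 3.53 in sham aortas and 4.80, 4.68 and 4.50 with CaCl2. The gap between the groups was wider than the range within either. Tgfbr2 rose by 0.91 ± 0.20 (SE, adjusted p = 0.0106), a 1.88-fold change. A different Tgfbr2 probe, at base 2045 of the same transcript where the brighter one lies at base 4386, read -0.28, -0.35 and 0.23 in sham aortas and -0.19, -0.06 and 0.17 with CaCl2. There the groups overlapped and the difference was 0.11 (SE 0.23, adjusted p over probes = 0.738), so the rise of Tgfbr2 rests on the probe at base 4386.

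Tgfbr1, the type I receptor kinase, read 2.56, 2.78 and 2.48 in sham aortas and 2.41, 2.25 and 2.17 with CaCl2 at its brightest probe. The groups did not overlap, and the difference of -0.33 (SE 0.13) did not pass the test (adjusted p = 0.0757). A dimmer probe at base 2815 of the transcript, where the brightest lies at base 5605, read -1.01, -1.33 and -1.42 in sham aortas and -2.13, -2.43 and -2.18 with CaCl2. Its difference of -0.99 (SE 0.24) passed the test over probes (adjusted p = 0.0183). A further kept probe, designed to another Tgfbr1 transcript, gave -0.04 (SE 0.31), and the remaining Tgfbr1 probe was not kept. The probes of Tgfbr1 thus disagreed in size.

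Tgfbr3, which encodes betaglycan, a co-receptor that presents ligand to the type II receptor, read 2.86, 2.63 and 2.68 in sham aortas and 3.03, 2.79 and 2.45 with CaCl2. The CaCl2 arrays spread to both sides of the sham arrays. The difference was 0.03, with a 95% interval of -0.41 to 0.46, so changes within that range were not resolved.

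**Figure D2:**
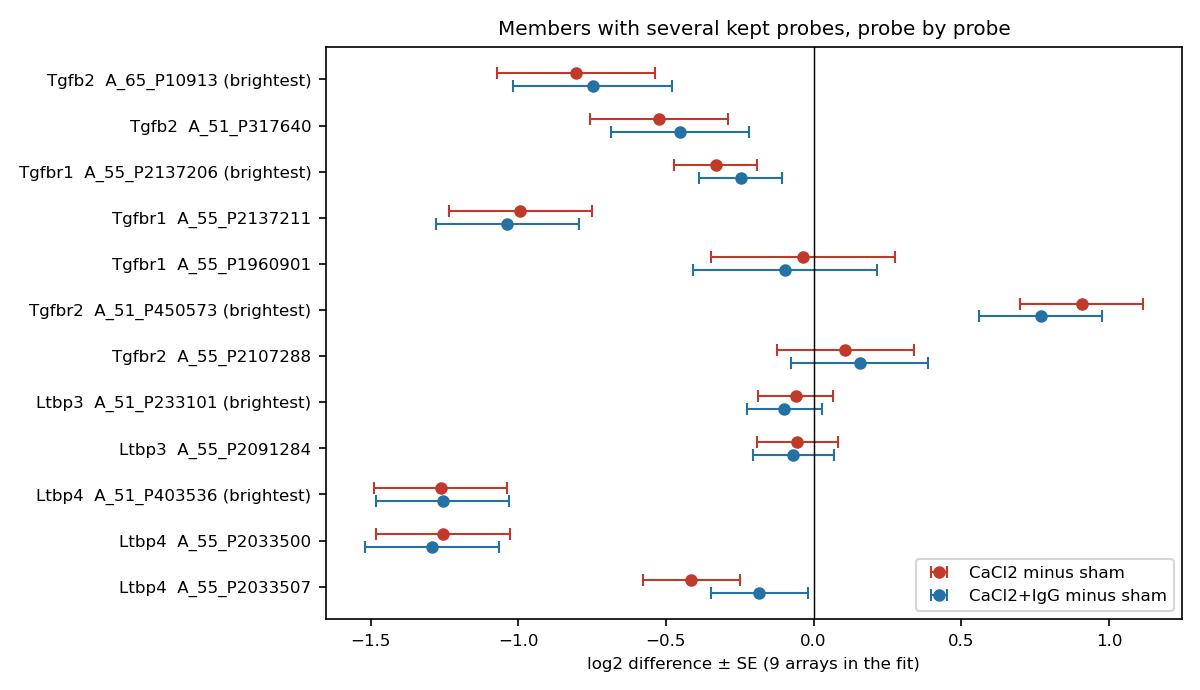
Log2 difference from sham with its SE for every kept probe of the 5 genes that had more than 1, for CaCl2 (red) and CaCl2 plus IgG (blue). The 2 Tgfbr2 probes lie apart, at 0.91 and 0.11 for CaCl2, as do the Tgfbr1 probes, at -0.33, -0.99 and -0.04, while the Ltbp3 probes coincide near -0.06.

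The latent TGF-beta binding proteins showed the widest range. Ltbp2 encodes the family member that does not bind latent TGF-beta and instead associates with fibrillin microfibrils. Its probe, at chr12:86124167-86124226 (mm9, minus strand), read 2.88, 2.81 and 3.02 in sham aortas and 6.99, 6.51 and 6.95 with CaCl2. Every CaCl2 array lay more than 3 log2 units above every sham array. Ltbp2 rose by 3.92 ± 0.17 (SE, adjusted p = 3.63e-05), with rank 120 of 16444 genes by size of change. Over 20 other settings the change ranged from 3.80 to 4.39 and passed the test in each.

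Ltbp1, which covalently binds the latent complex and anchors it in the matrix, read 5.09, 5.18 and 5.48 in sham aortas and 3.79, 4.18 and 3.70 with CaCl2. The lowest sham array lay well above the highest CaCl2 array. Ltbp1 fell by 1.37 (SE 0.18, adjusted p = 0.00138), which is 2.58-fold lower. The difference kept its call in 20 of 20 settings and ranged from -1.51 to -0.89. A probe to a further Ltbp1 transcript exceeded background clearly on 0 of 9 arrays and was left untested.

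Ltbp4, a family member needed for elastic fibre assembly, read 7.51, 7.50 and 7.79 in sham aortas and 6.60, 6.58 and 5.82 with CaCl2. The sham arrays lay close together, and CaCl2 replicate 3 was lower than the others of its group. Ltbp4 fell by 1.26 (SE 0.22, adjusted p = 0.00377), or 2.40-fold. A separate probe on the same transcript gave the same difference, -1.26 (SE 0.23), and a dim probe to another transcript gave -0.41 (SE 0.16, adjusted p over probes = 0.0824). With median scaling the difference of Ltbp4 was -0.79 (adjusted p = 0.0645).

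Ltbp3, which like Ltbp1 binds the latent complex, read between 4.93 and 5.09 on the sham arrays and 4.96, 4.96 and 4.91 with CaCl2. The groups overlapped and the spread was the smallest among the 10 genes within CaCl2 aortas, with an SD of 0.03. The difference was -0.06, with a 95% interval of -0.33 to 0.21, and the other Ltbp3 probe gave -0.06 as well.

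Within slide row 1, where the 3 CaCl2 arrays met 1 sham array, the differences were 3.80 for Ltbp2, -1.60 for Ltbp1, -1.45 for Ltbp4 and 1.13 for Tgfbr2. For Tgfb2 and Tgfb3 they were -0.75 and -0.89. That sham array lay on slide 2 and the CaCl2 arrays on slide 1, so row 1 alone compares slides as well as groups, and with 1 sham array the values carry no test. With sham arrays of slide 1 only, which all lay in row 2, the differences were 3.97 for Ltbp2 (adjusted p = 0.000540), -1.25 for Ltbp1 (adjusted p = 0.00568), -1.17 for Ltbp4 (adjusted p = 0.0162) and 0.80 for Tgfbr2 (adjusted p = 0.0396) in limma. For Tgfb1, Tgfb2 and Tgfb3 they were 0.38, -0.83 and -0.67 and did not pass.

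**Figure D3:**
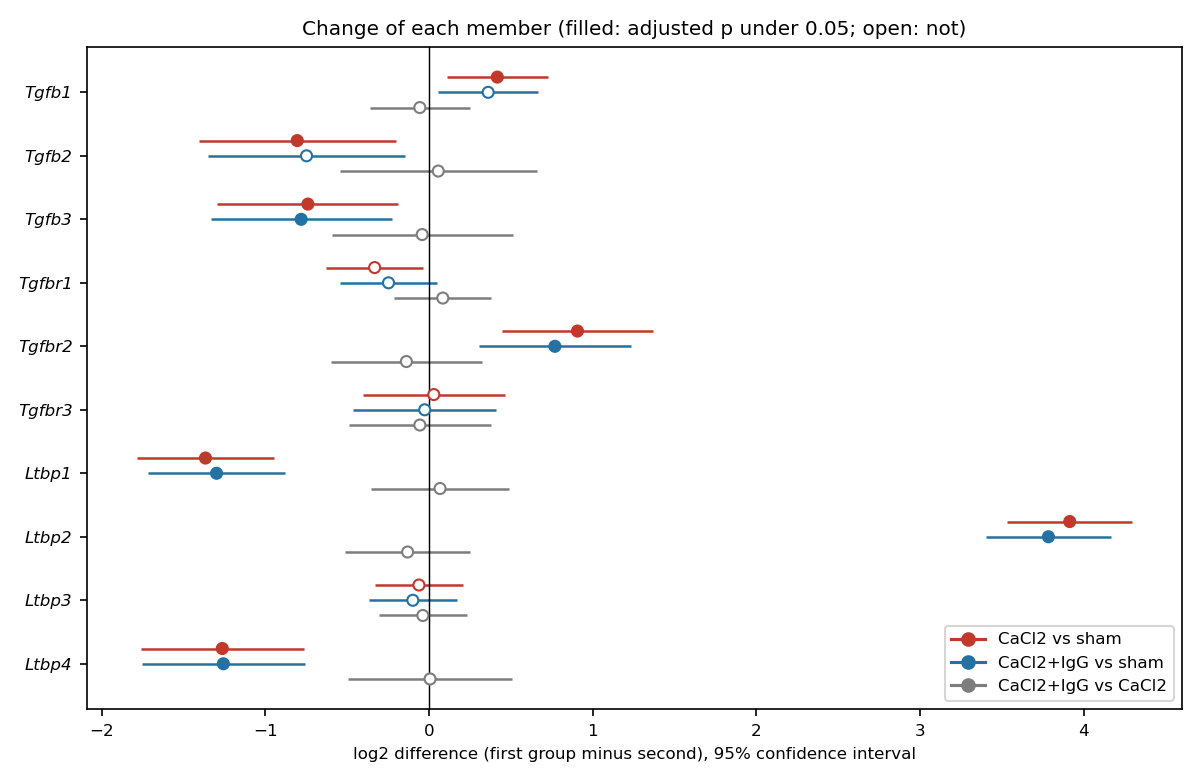
Log2 difference (first group minus second) with its 95% confidence interval for the 10 genes in each of the 3 comparisons, filled where the adjusted p was under 0.05. CaCl2 (red) and CaCl2 plus IgG (blue) against sham share the sham arrays, and every interval of CaCl2 plus IgG against CaCl2 (grey) includes 0.

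The sequences before the RefSeq start sites of Ltbp2 and Ltbp1 are shown because these genes moved furthest in opposite directions. Each is the 250 bases upstream of a start in GRCm38.p6, a different build from that of the probes. Capitals mark CAGAC on either strand (GTCTG on the strand shown), the short motif that Smad3 and Smad4 bind. The Ltbp2 window is chr12:84876492-84876741 on the minus strand, and the Ltbp1 windows, for 2 start sites, are chr17:75005279-75005528 and chr17:75178531-75178780 on the plus strand.
Ltbp2: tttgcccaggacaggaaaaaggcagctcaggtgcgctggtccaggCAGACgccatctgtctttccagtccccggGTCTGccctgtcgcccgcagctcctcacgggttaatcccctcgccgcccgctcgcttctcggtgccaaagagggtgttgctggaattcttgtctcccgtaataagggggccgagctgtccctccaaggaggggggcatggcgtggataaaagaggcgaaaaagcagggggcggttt
Ltbp1, upstream start: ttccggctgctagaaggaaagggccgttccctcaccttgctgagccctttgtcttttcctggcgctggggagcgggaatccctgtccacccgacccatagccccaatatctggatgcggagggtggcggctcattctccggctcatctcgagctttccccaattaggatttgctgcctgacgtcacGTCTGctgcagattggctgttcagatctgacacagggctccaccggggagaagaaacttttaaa
Ltbp1, downstream start: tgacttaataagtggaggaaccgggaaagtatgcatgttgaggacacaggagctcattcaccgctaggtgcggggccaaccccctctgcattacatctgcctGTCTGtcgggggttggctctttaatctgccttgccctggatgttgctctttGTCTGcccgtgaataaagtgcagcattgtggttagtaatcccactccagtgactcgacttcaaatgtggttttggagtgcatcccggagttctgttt
The Ltbp2 window held 2 copies of CAGAC, and the Ltbp1 windows 1 and 2. RefSeq gave 12 such windows for 8 of the 10 genes, and 7 of the 12 held the motif, where 42.2% of 32851 windows of the same length did. The AP-1 motif TGANTCA was in 0 of 12 windows and in 6.75% of all. Both strands were searched, and a match or its absence is a description of letters, not of binding.

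The second comparison asked whether injected IgG changed these genes in CaCl2-treated aortas. Of the 10 genes 0 passed the test in limma, and so did 0 of 16444 genes, or 0%. At an unadjusted p under 0.05 the counts were 0 of the 10 and 240 genes, 1.46%. The groups overlapped for all 10 genes, while 5.02% of all genes showed no overlap. Differences of CaCl2 plus IgG from CaCl2 ranged from -0.14 for Tgfbr2 to 0.08 for Tgfbr1.

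With CaCl2 plus IgG the values were 6.80, 6.77 and 6.50 for Ltbp2 and 3.90, 3.80 and 4.17 for Ltbp1. Ltbp4 read 6.42, 6.23 and 6.38. All of these lay within or close to the CaCl2 range, and Ltbp4 lacked the low array seen with CaCl2. The 95% interval of the difference was -0.51 to 0.25 for Ltbp2, -0.35 to 0.49 for Ltbp1 and -0.49 to 0.51 for Ltbp4.

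The ligands with CaCl2 plus IgG read 0.91, 0.68 and 0.84 for Tgfb1, 2.78, 2.19 and 1.79 for Tgfb2, and 4.70, 4.50 and 4.13 for Tgfb3. Tgfb2 had its highest array in replicate 1, which reached the sham range. The intervals of the difference from CaCl2 were -0.36 to 0.25 for Tgfb1, -0.55 to 0.66 for Tgfb2 and -0.59 to 0.51 for Tgfb3. A difference as large as the measured gap between the CaCl2 and sham means lay outside each of these 3 intervals. That gap has an error of its own that the intervals do not include, so a return to the sham level was not tested.

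The receptors with CaCl2 plus IgG read 4.74, 4.72 and 4.11 for Tgfbr2, 2.37, 2.33 and 2.39 for Tgfbr1, and 2.98, 2.53 and 2.58 for Tgfbr3. Replicate 3, the array that stood apart, was the low one for Tgfbr2. Without it the difference of Tgfbr2 from CaCl2 was 0.07 in place of -0.14, that of Tgfb2 was 0.29 in place of 0.06, and again 0 of the 10 genes passed. Ltbp3 read 4.99, 4.78 and 4.95, with an interval of -0.30 to 0.23 against CaCl2.

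The third comparison set CaCl2 plus IgG against sham and so shares the sham arrays with the first. Of the 10 genes 5 passed, 2 higher and 3 lower, against 28.9% of all genes, 14.7% higher and 14.2% lower. Groups did not overlap for 7 of the 10, against 44.3% of all genes. Ltbp2 rose by 3.79 ± 0.17 (SE, adjusted p = 3.39e-05), beside 3.92 with CaCl2 alone. Ltbp1 fell by 1.30 (SE 0.18, adjusted p = 0.00182), beside the difference of -1.37 with CaCl2 alone. Ltbp4 fell by 1.26 (SE 0.22, adjusted p = 0.00422), beside -1.26.

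Tgfbr2 rose by 0.77 ± 0.20 (SE, adjusted p = 0.0231) at its brightest probe and differed by 0.16 at the other. This call of Tgfbr2 was lost in 7 of 21 other settings, among them median scaling (difference 1.01, adjusted p = 0.0714). Tgfb3 fell by 0.78 (SE 0.24, adjusted p = 0.0424). That call was lost in 13 of 20, with a difference of -0.54 (adjusted p = 0.347) under median scaling. Without replicate 3 of the CaCl2 plus IgG group the difference of Tgfb3 was -0.62 (adjusted p = 0.0813), that of Tgfbr2 was 0.98 (adjusted p = 0.00336), and Ltbp1, Ltbp2 and Ltbp4 kept their calls. The differences of Tgfb1, 0.36 (adjusted p = 0.0757), and Tgfb2, -0.75 (adjusted p = 0.0648), did not pass. Tgfbr1, Tgfbr3 and Ltbp3 differed by -0.25, -0.03 and -0.10 and did not pass either.

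Genes that release or hold latent TGF-beta were read from a list of 16, of which 15 were tested in CaCl2 against sham. Of these 6 rose, 4 fell and 5 did not pass, where 17.4% of all genes were higher and 19.1% lower. The median was 0.58, beside -0.08 for all genes. Nrros, which tethers latent TGF-beta on myeloid cells, rose by 2.29 ± 0.34 (SE, adjusted p = 0.00218), and the proteases Mmp2, Mmp14 and Plau rose by 2.07, 1.88 and 1.41. Thbs1, the thrombospondin that can release the growth factor, rose by 1.57 ± 0.37 (SE, adjusted p = 0.0131). Lrrc32, which tethers latent TGF-beta on the surface of other cells, fell by 0.95. Of the integrin subunits Itgb3 fell by 0.74, Itgb1 fell by 0.61 and Itgav fell by 0.54.

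The probes of Itgb3 differed in sign. Itgb8, an integrin subunit that activates latent TGF-beta, was clearly above background on 0 of 3 arrays in sham and on 3 of 3 in each other group. It thus passed the filter on dim signal through the CaCl2-treated groups alone. Set against the floor of the sham arrays, the lower bound of its fold was 1.05 with CaCl2 and 1.66 with CaCl2 plus IgG. With CaCl2 the measured values overlapped those of sham. Measured means were -4.73 in sham, -4.15 with CaCl2 and -3.49 with CaCl2 plus IgG. The test in limma was made on these measured means, not on the bounds. It gave an adjusted p of 0.227 with CaCl2, which did not pass, and 0.0316 with CaCl2 plus IgG. Both rest on a sham mean under the floor mean of -4.22. Itgb6 had no probe that passed the filter and was not tested. With median scaling 7 genes of this list were higher and 0 lower, where 3641 of all 16444 genes were higher and 1076 lower.

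Of 15 extracellular partners and modulators 3 rose, 1 fell and 11 did not pass, with a median of 0.36. Over all genes 36.4% passed. Fmod, encoding the proteoglycan fibromodulin, rose by 2.25 ± 0.50 (SE, adjusted p = 0.0103). Cd109 and Eng, which encode co-receptors, rose by 1.21 and 0.75. Vasn, whose product can bind TGF-beta, fell by 1.13 (SE 0.21, adjusted p = 0.00496). Fbn1, the fibrillin to which latent complexes are tied, differed by 0.51 (SE 0.29, adjusted p = 0.196). With median scaling 3 genes of this list were higher and 0 lower, beside 3641 and 1076 of all 16444 genes.

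Of 22 tested genes of intracellular signalling and feedback 3 rose, 4 fell and 15 did not pass, beside the 36.4% of all genes that passed. The median was -0.14. The repressor Tgif1 rose by 1.64 ± 0.22 (SE, adjusted p = 0.00132), the adaptor Dab2 by 1.23 and Smad3 by 0.70, though the probes of Smad3 differed in sign. Tgif2, a related repressor, fell by 1.70, and the inhibitory Smad6 fell by 0.94. The ubiquitin ligase gene Smurf2 fell by 0.55 and the repressor Ski fell by 0.48. Smad2, Smad4 and the inhibitory Smad7 differed by 0.10, -0.10 and -0.37 and did not pass. With median scaling 4 genes of this list were higher and 1 lower, beside 3641 and 1076 of all 16444 genes.

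Of 27 genes known as targets of TGF-beta 13 rose, 5 fell and 9 did not pass, with a median of 0.79. Of all genes 17.4% were higher and 19.1% lower. The largest increases were those of Comp, a matrix protein gene, by 3.65 ± 0.34 (SE, adjusted p = 0.000460), the inhibitor gene Timp1 by 2.98 and Cthrc1 by 2.85, for which 1 of 3 sham arrays gave a signal well above background. The transcription factor genes Snai1 and Bhlhe40 rose by 1.89 and 1.46. Of the smooth muscle genes Cnn1 fell by 2.15, Acta2 fell by 1.49 and Tagln fell by 1.16. The oxidase gene Nox4 fell by 1.31, and Ccn2, the connective tissue growth factor gene, fell by 0.74. With median scaling 15 genes of this list were higher and 4 lower, beside 3641 and 1076 of all 16444 genes.

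Of 14 tested genes of the activin and GDF arm 1 rose, 3 fell and 10 did not pass, against 36.4% of all genes that passed, and the median was -0.34. Gdf15, a stress-induced cytokine gene, rose by 1.39. Fstl3, which encodes an activin antagonist, fell by 1.40 (SE 0.26, adjusted p = 0.00462), and the receptor gene Acvr1c fell by 1.36. Acvr2a, an activin receptor gene, fell by 0.41, and its difference was 0.07 with median scaling. With median scaling 3 genes of this list were higher and 0 lower, beside 3641 and 1076 of all 16444 genes. In CaCl2 plus IgG against CaCl2, 0 genes passed in each of the 5 lists.

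**Figure D4:**
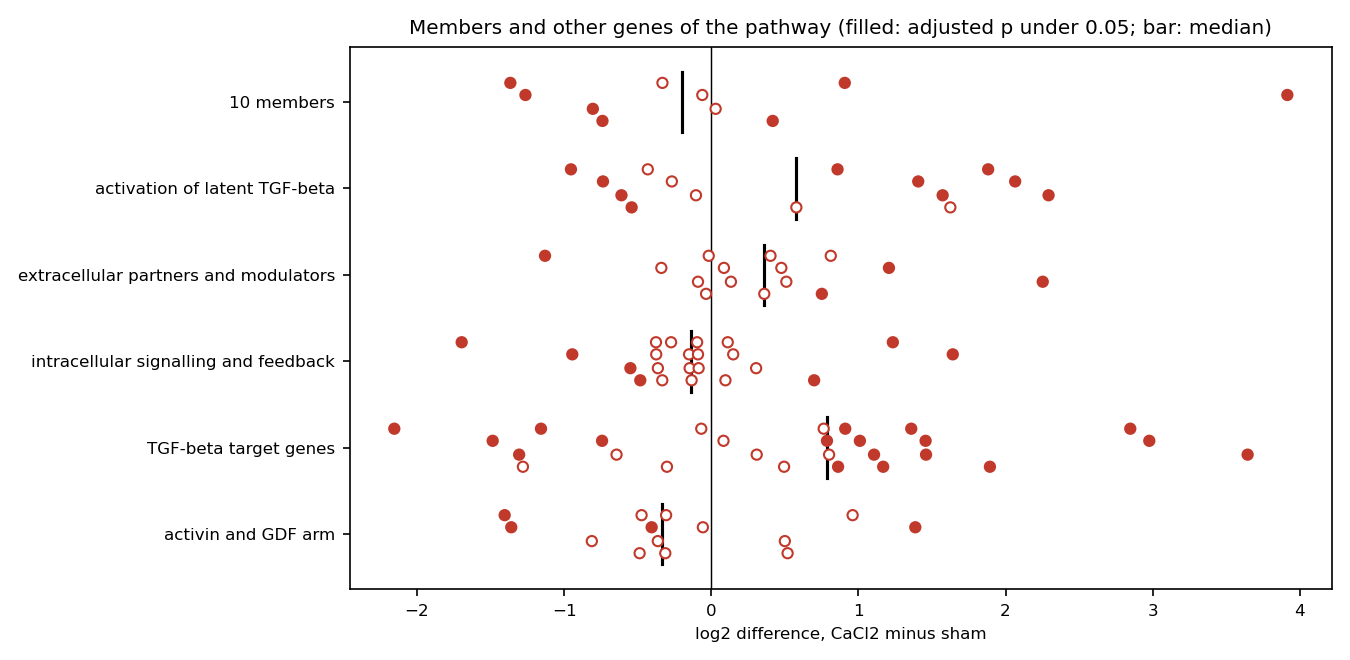
Log2 difference of CaCl2 from sham for the 10 genes and for the tested genes of 5 further lists of the pathway, filled where the adjusted p was under 0.05, with a bar at the median of each row. Ltbp2, at 3.92, is the rightmost point, and the medians run from -0.34 for the activin and GDF arm to 0.79 for the target genes.

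Cell type markers were read beside these genes. In CaCl2 against sham, 17.4% of all genes were higher and 19.1% lower. Of 10 smooth muscle markers 10 fell with CaCl2, and their summed linear signal was 2695 to 3089 in sham, 819 to 1330 with CaCl2 and 903 to 1229 with CaCl2 plus IgG. Of these markers Acta2, Tagln and Cnn1 also stand among the target genes. Of 10 markers of fibroblasts and adventitia 6 rose, with sums of 924 to 953, 1124 to 1271 and 1170 to 1478. Of 10 markers of monocytes and macrophages 8 rose and 1 fell, with a median change of 2.70. Their sums were 226 to 228, 246 to 310 and 279 to 375. Itgam, the brightest of these probes at 7.42 in sham and 6.07 with CaCl2, was the marker that fell, and its probes differed in sign.

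Of 8 T cell markers 6 rose and 1 fell, with sums of 5.23 to 7.26 in sham, 10.9 to 20.9 with CaCl2 and up to 14.6 with CaCl2 plus IgG. Of 6 B cell markers 2 rose and 4 did not pass, and Cd79b rose by 2.39. Of 5 tested adipocyte markers 1 fell with CaCl2 and 5 fell with CaCl2 plus IgG, each against sham, with median changes of -1.64 and -2.52. In CaCl2 plus IgG against CaCl2, 0 of the 5 passed. Their sums were 62.8 to 109 in sham, 32.4 to 58.8 with CaCl2 and 29.1 to 43.8 with CaCl2 plus IgG. Of 3 tested skeletal muscle markers 1, Acta1, fell by 2.48, with sums of 40.5 to 52.4, 5.78 to 14.6 and 8.02 to 8.58. These sums are nearly all Acta1, at 5.53 in sham beside -3.69 for Tnnt3 and -3.59 for Actn3, which did not pass. The skeletal muscle markers Myh1, Myh2, Myh4, Ckm and Mylpf had no probe that passed the filter. Over all genes 17.4% were higher and 19.1% lower in CaCl2 against sham. For CaCl2 plus IgG against sham these shares were 14.7% and 14.2%. Of 6 tested platelet markers 2 rose and 1 fell with CaCl2, and of 9 endothelial markers 2 rose and 2 fell. The part of these shifts in the changes of the TGF-beta genes was not tested. In whole aorta, fewer cells of a type and less RNA per cell cannot be told apart.

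For each of the 10 genes the most similar profiles among all genes were sought by the root mean square difference over the 9 arrays, after each gene was centred on its mean. For Ltbp2 they were Btk, at 0.28, and Klrb1c, at 0.28, farther than the nearest profile of any other of the 10. For Ltbp1 they were Fry, at 0.08, and Cdip1, at 0.08, and for Ltbp4 Tcf7l1, at 0.11, and Gm13547, at 0.12. For Ltbp3 they were Ppp4r3a and Sephs1, each at 0.06.

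The ligand genes lay nearest to Polr3k and Slc30a4 (Tgfb1, 0.06 and 0.07), Xpnpep2 and Eri3 (Tgfb2, 0.12 and 0.14), and Cdc42ep3 and Mapre2 (Tgfb3, 0.09 and 0.10). The receptor genes lay nearest to Naca and Ramac (Tgfbr1, 0.04 and 0.04), Ccdc47 and Hsd17b11 (Tgfbr2, 0.07 and 0.08), and Atl1 and Bbs1 (Tgfbr3, 0.10 and 0.10). None of the 10 genes was among the 2 nearest of another.

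**Figure D5:**
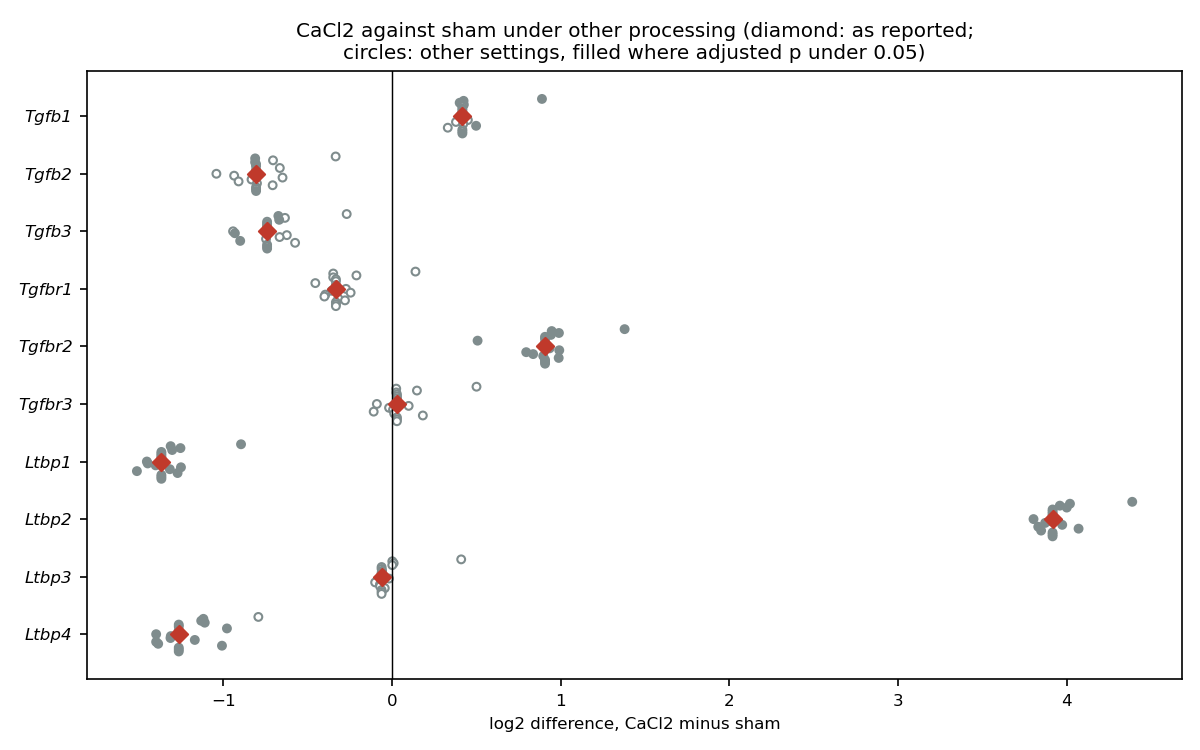
Log2 difference of CaCl2 from sham for the 10 genes as reported (diamonds) and under the other settings on the representing probe or the mean of probes (circles, filled where the adjusted p was under 0.05). Every circle of Ltbp1 and Ltbp2 is filled, from -1.51 to -0.89 and from 3.80 to 4.39, and the circles of Tgfb1, Tgfb2 and Tgfb3 are partly open.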

How the data were processed

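Total RNA from the abdominal aorta of 9 samples was measured on 1-colour Agilent arrays, 1 per sample, and groups were read from the sample titles. The deposited scanner files hold spot intensity on a linear scale, from which Feature Extraction 10.7.1.1 had subtracted the background, per the file headers. The submitters' processing notes name version 9.5.1.1. The authors' deposited matrix of the series holds intensity values whose 9 columns share a median of 29.7, and each column followed its own array with a correlation of at least 0.999. Its scale is linear and uncentred, no source used here says how it was made, and it served as an alternative. Columns not mapped to a sample numbered 0. The labels and the design text name different RNA purification kits.

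From the log2 of the processed signal, the 75th percentile per array was subtracted, computed without control spots. Control spots were dropped, and spots of a probe were averaged without outlier spots. A probe whose spots were all outliers on an array kept their mean there. The filter kept probes that were well above background on 3 of 3 arrays in any group, 32167 of 55681. Probes were named through accessions (27235) or symbols (4146) from RefSeq genes of mouse assembly GRCm38.p6, or by the file alone (1431), and 22869 had no symbol. The kept probe with the brightest mean represented a gene. Where no array of the dimmer group was above background, a fold is a lower bound: each dim array was set to its lowest well-above-background signal, or to the probe's own signal if higher.

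Groups were compared with limma 3.58.1 (lmFit and eBayes) in R 4.3.3, and files were read by data.table (version 1.17.8). The 9 arrays entered 1 fit with no covariate, leaving 6 residual degrees of freedom, with Benjamini-Hochberg adjustment over all 16444 genes, or over all kept probes where stated. The fit was tested on simulated data. The alternatives were median scaling, quantile normalization, normexp background with an offset of 50, the values deposited for the series, the filter on dim probes, the mean of probes, each probe, the arrays in the fit, the replicate number or slide row as a block, and leaving out each array.

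The genes named were the 10 with every probe, up to 5 called genes per direction of each list with the largest change, a fixed set (Smad2, Smad3, Smad4, Smad7, Ccn2, Thbs1, Fbn1, Itgb6, Itgb8, and another that is not reported here), and the 2 nearest profiles of each of the 10. Ccn2 is listed as Ctgf in the files. The 10 genes and all lists were chosen with earlier results of these data known. Their counts beside the share of all genes are therefore descriptive and do not test the pathway. Promoter sequences come from RefSeq, and no genome was used.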

Additional observations from a re-analysis of the deposited data

How the results depend on the processing

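Over the alternatives tried, Ltbp1 and Ltbp2 kept their calls and directions in both comparisons with sham, and in CaCl2 plus IgG against CaCl2 0 of the 10 genes passed in any. Of the 10 genes, the number called in CaCl2 against sham was 4 with median scaling and 4 with the slide row as a block, and ranged from 4 to 7 when an array was left out. It was 4 without sham replicate 2, sham replicate 3, CaCl2 replicate 1, CaCl2 replicate 3 or CaCl2 plus IgG replicate 2. In CaCl2 plus IgG against sham it was 3 with median scaling, 3 with only the compared groups in the fit, and 3 to 5 with an array left out, the lowest without sham replicate 3 or CaCl2 plus IgG replicate 2. Genes called in CaCl2 against sham numbered 4717 with median scaling and 3375 with the slide row as a block. With an array left out they numbered 3891 to 7405 (3891 without sham replicate 3, 3972 without CaCl2 replicate 1). In CaCl2 plus IgG against sham they numbered 2987 with median scaling and 3011 to 6655 with an array left out, and in CaCl2 plus IgG against CaCl2 0 to 2, the 2 without CaCl2 plus IgG replicate 1. Acvr2a reversed to 0.0663 with median scaling (adjusted p = 0.853). The causes were not tested. Sham replicate 3 was alone on its slide, so the slide as a block is the fit without it.

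Replicate numbers are shared between groups. The numbers are not said to pair samples, so the main fit has no block. Deviations from group means were correlated across genes between same-numbered arrays. The correlations were -0.11, -0.11 and -0.06 for CaCl2 with sham. For CaCl2 plus IgG with CaCl2 they were 0.12, -0.20 and -0.06. For CaCl2 plus IgG with sham they were 0.02, 0.16 and 0.22. With 3 arrays per group these correlations do not settle whether arrays were paired. With the replicate block 5755 genes and 5 of the 10 were called in CaCl2 against sham, 4644 genes and 5 of the 10 in CaCl2 plus IgG against sham, and 0 in the other comparison. The probes that represent the 10 genes were well above background on every array. Array brightness differed between CaCl2 and sham, and its part in the changes was not tested. The precision for the 10 genes is limited by 3 arrays per group.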
